A study of Homo sapiens with 6 samples.

Results

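Transcripts of the nuclear RNA polymerases, the Mediator complex and the general transcription factors were examined in the human colon cancer line HT29, established from a colorectal adenocarcinoma, after 24 h with a polyphenolic extract of cocoa. The genes were those whose symbol starts with POLR1, POLR2 or POLR3 and a subunit letter from A to M, with MED and a number, with TAF and a number, or with GTF2 or GTF3. Of 19775 genes named by the array's probe sets, 116 met this rule, and they were read by 270 of 54613 probe sets. They comprised 9 polymerase I, 14 polymerase II, 9 polymerase III, 30 Mediator, 24 TAF and 30 GTF symbols. Of the 116, 104 are protein-coding, and the other 12 are 7 transcribed pseudogenes and 5 long non-coding RNAs that carry a subunit's name.

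The cocoa group was 3 cultures that received 500 µg of the extract (the volume was not stated), and the control group was 3 cultures that received saline and are titled untreated. All 6 were HT29 cells plated at 300000 cells and grown with 7% serum, and each culture was hybridised to its own Affymetrix Human Genome U133 Plus 2.0 array. In the deposited log2 table every probe set has been shifted to a median of 0 over the 6 arrays, so the values show differences between arrays and no levels, and the epithelial markers of the line could not be read as present or absent. A gene's value is the mean of its probe sets. The labels do not say how separately the cultures were grown, and the p-values cover no more than the spread among these 6 cultures. Control probe sets for 18S ribosomal RNA read −0.51, 3.31 and 1.40 in cocoa arrays 1, 2 and 3, and −1.12 to 0.51 in the control arrays, so that cocoa arrays 2 and 3 stood apart. The difference between 5′ and 3′ control probe sets, a measure of RNA integrity, was 0.032, −0.26 and −0.053 in the cocoa arrays and 0.0090 to 0.033 in the control arrays.

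Human nuclei contain RNA polymerase I, which transcribes the large ribosomal RNA precursor, polymerase II, which transcribes messenger RNA, and polymerase III, which makes transfer RNA, 5S ribosomal RNA and other short RNAs. The enzymes share a set of small subunits and differ in their catalytic core and in peripheral subunits that act like built-in initiation factors. At polymerase II promoters, TFIID (TBP with its associated factors, the TAFs) binds first, TFIIA, TFIIB, TFIIE, TFIIF and TFIIH complete the initiation complex, and Mediator connects it to DNA-bound activators. Polymerase I uses the TAF-containing factor SL1, and TFIIIA and TFIIIC are among the factors of polymerase III.

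The 250 bases before the annotated start are shown for 4 of the 6 genes whose calls held in every fit without 1 array. The sequences are as RefSeq gives them for GRCh38.p14. Those of POLR1E and POLR3G, whose calls also held, are not shown. Capitals mark matches to the letters CACGTG (the E-box bound by MYC and related factors), GGGCGG (the GC box) or CCAAT, on either strand, so that GGGCGG also appears as CCGCCC and CCAAT as ATTGG.
POLR1G (chr19:45406394-45406643, plus strand): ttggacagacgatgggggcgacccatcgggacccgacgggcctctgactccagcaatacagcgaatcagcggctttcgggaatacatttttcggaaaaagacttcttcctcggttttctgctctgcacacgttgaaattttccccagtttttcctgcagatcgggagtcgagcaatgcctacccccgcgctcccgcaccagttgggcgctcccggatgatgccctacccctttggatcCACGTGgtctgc
POLR3GL (chr1:145964440-145964689, plus strand): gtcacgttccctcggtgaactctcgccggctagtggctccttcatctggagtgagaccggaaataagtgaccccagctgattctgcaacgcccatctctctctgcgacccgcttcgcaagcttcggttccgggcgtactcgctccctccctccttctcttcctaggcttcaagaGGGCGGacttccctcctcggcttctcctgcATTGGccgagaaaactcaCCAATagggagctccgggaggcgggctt
TAF5 (chr10:103367726-103367975, plus strand): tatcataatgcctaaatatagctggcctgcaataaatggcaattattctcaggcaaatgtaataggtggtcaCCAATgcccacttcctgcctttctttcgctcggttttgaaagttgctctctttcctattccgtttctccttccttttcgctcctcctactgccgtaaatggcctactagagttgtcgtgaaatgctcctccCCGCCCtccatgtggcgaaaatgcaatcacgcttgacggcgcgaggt
TAF5L (chr1:229626123-229626372, minus strand): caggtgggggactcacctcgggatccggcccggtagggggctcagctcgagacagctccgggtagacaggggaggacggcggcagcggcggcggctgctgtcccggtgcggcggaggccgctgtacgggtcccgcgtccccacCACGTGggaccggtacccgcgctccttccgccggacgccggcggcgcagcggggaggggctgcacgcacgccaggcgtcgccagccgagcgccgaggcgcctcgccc
POLR1G held a CACGTG that began 12 bases before the start, and TAF5L held one that began 107 bases before it. POLR3GL, the member that rose most, held CCAAT beginning 28 and, on the other strand, 46 bases before the start, and a GGGCGG at 76. TAF5 held CCAAT at 178 and GGGCGG, on the other strand, at 47. These are matches of letters in a window, not measured binding sites.

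Of the 116 genes, 20 fell and 2 rose with cocoa at the threshold used throughout, a limma p-value adjusted by Benjamini and Hochberg's method over all 19775 genes of less than 0.05. This was 19.0% of the members, beside 13.5% of all genes tested. In the downward direction the share was 17.2%, against 6.12% of all genes, and in the upward direction 1.72%, against 7.36%. All 22 were protein-coding, and in all 22 the groups did not overlap. Over all members the groups did not overlap in 54 genes (46.6%, against 32.5% of all genes), 42 of them lower and 12 higher (17.0% and 15.4% of all genes). Over single probe sets, 26 of the 270 were lower and 3 higher (10.7%), beside 7.98% of all probe sets called and 3.3% called lower. The changes were modest: the folds of the 22 lay between 1.16 and 1.57, and their adjusted p between 0.000585 and 0.0482. The median log2 difference, cocoa minus control, was −0.072 over the members and −0.0125 over all genes. In bulk RNA, fewer cells of a type and less RNA per cell cannot be told apart.

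**Figure D1:**
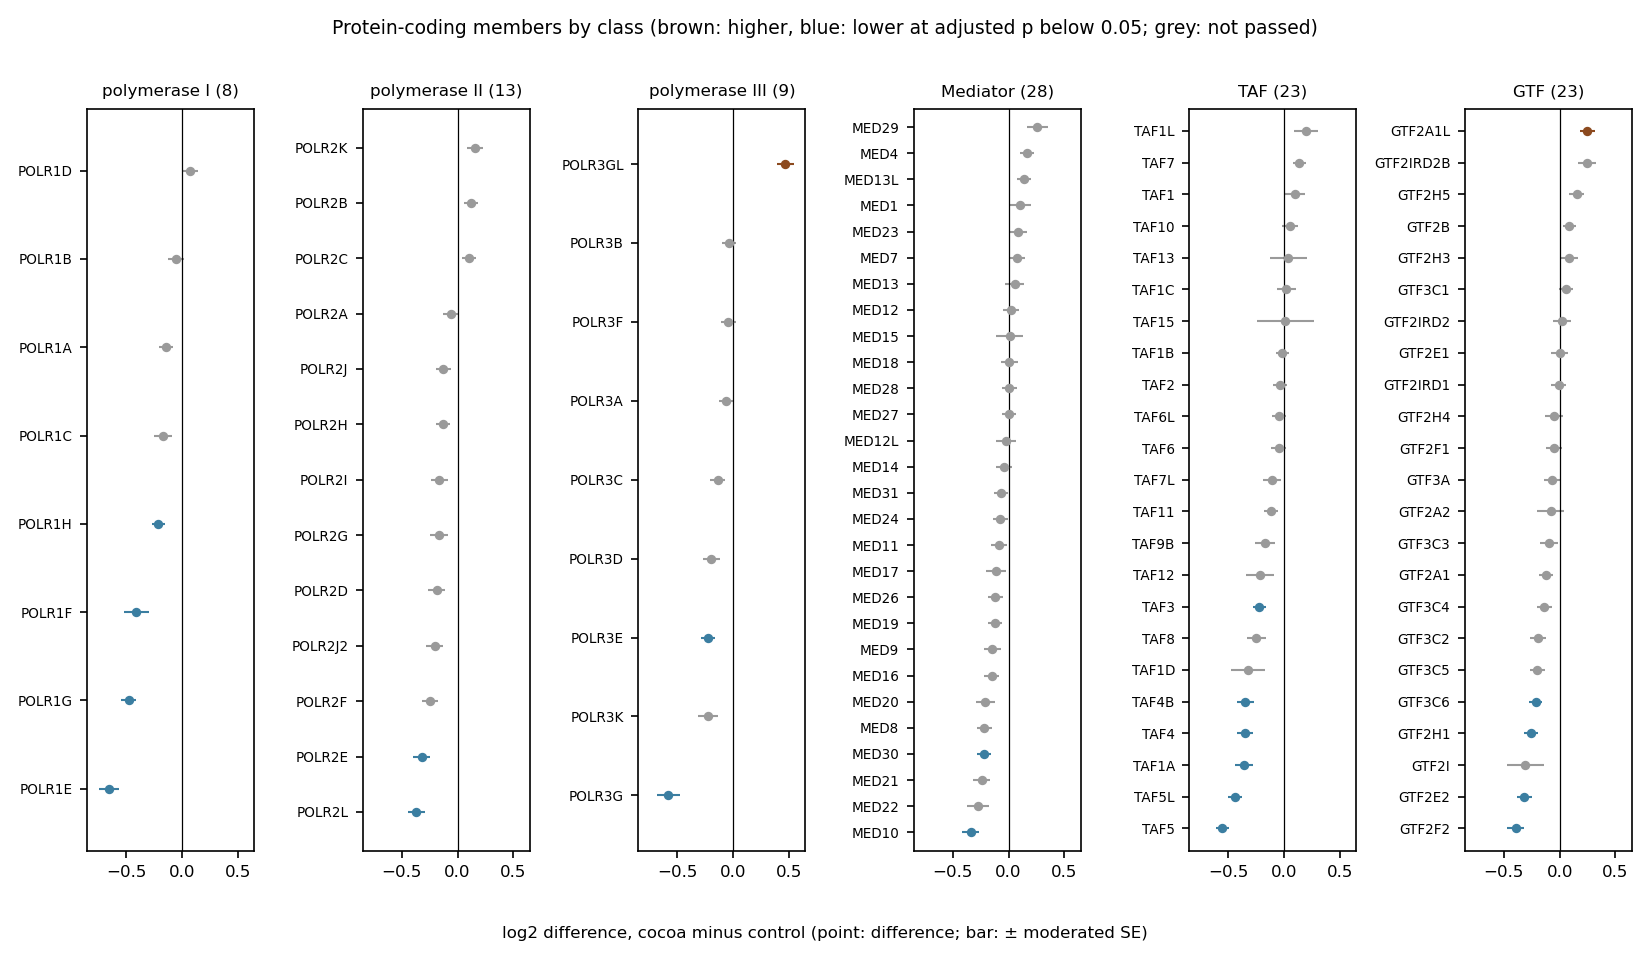
Log2 difference, cocoa minus control, with its moderated standard error, for the 104 protein-coding members in 6 classes (n = 3 arrays per group); genes past the threshold are brown where higher and blue where lower. All 4 called polymerase I genes lie to the left of 0, POLR3G and POLR3GL lie at opposite ends of their class, and 26 of the 28 Mediator genes did not pass.

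The 20 decreases were in 4 polymerase I, 2 polymerase II, 2 polymerase III, 2 Mediator, 6 TAF and 4 GTF genes. In the reported fit none of the 6 genes for the catalytic cores of the polymerases passed. In polymerase I, POLR1E, POLR1F, POLR1G and POLR1H all fell. This was 44.4% of the 9 polymerase I genes, beside 13.5% of all genes called and 6.12% called lower. The 4 that fell are the measured protein-coding genes of subunits found only in polymerase I outside its catalytic core. The other 4 protein-coding members of the class did not pass.

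POLR1E and POLR1G encode the partners of a dimer that sits on polymerase I much as TFIIF and TFIIE sit on polymerase II. POLR1E read −0.19, −0.42 and −0.50 in cocoa arrays 1, 2 and 3, and 0.28, 0.21 and 0.36 in control arrays 1, 2 and 3. Every cocoa array lay below every control array, with cocoa array 1 nearest to the controls. The gene was 1.57-fold lower (log2 difference −0.65, SE 0.090, limma adjusted p = 0.00193, n = 3 arrays per group), the largest decrease among the members, and its 3 probe sets read −0.60, −0.57 and −0.79. POLR1G read −0.195, −0.37 and −0.24 in the cocoa arrays and 0.21, 0.23 and 0.195 in the control arrays. The controls of POLR1G lay close together, and the gene was 1.39-fold lower (−0.48, SE 0.068, adjusted p = 0.00229).

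POLR1F, a subunit of the polymerase I stalk that contacts the initiation factor RRN3, read −0.041, −0.52 and −0.21 in the cocoa arrays and 0.23, 0.19 and 0.041 in the control arrays. Its cocoa arrays were the most scattered of the 4, with array 2 far below array 1 (difference −0.41, SE 0.12, adjusted p = 0.0463), and its probe sets read −0.64 and −0.17. POLR1H, the small subunit that assists cleavage of the nascent RNA, read −0.11, −0.14 and −0.097 with cocoa and 0.12, 0.079 and 0.10 in the controls (−0.21, SE 0.060, adjusted p = 0.0458). Of its 6 probe sets 4 carry suffixes for possible matches to other transcripts, and without those its adjusted p was 0.219. The calls of POLR1E and POLR1G were kept in all 6 fits without 1 array (adjusted p at most 0.0107 and 0.0165). POLR1F passed in 1 of them, without cocoa array 1 (0.0166 to 0.143), and POLR1H in none (0.0637 to 0.132).

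In the reported fit the catalytic core of polymerase I did not pass. The log2 difference was −0.14 for POLR1A, the largest subunit (SE 0.064, adjusted p = 0.186), and −0.051 for POLR1B, the second largest (SE 0.072, adjusted p = 0.732). Their probe sets disagreed. The 3 for POLR1A read −0.45, −0.27 and 0.28, of which the first passed the threshold over probe sets (limma adjusted p = 0.012). Of the 4 for POLR1B, 1 read −0.38 (adjusted p = 0.023) and 2 read above 0. With the median of probe sets in place of their mean, POLR1A passed (−0.25, limma adjusted p = 0.0311) and POLR1B did not (−0.027, 0.881). Whether the core differed from the other subunits was not tested. Averaged over the 8 protein-coding polymerase I members, cocoa arrays 1, 2 and 3 read −0.057, −0.24 and −0.16, and the control arrays 0.099, 0.098 and 0.11. Among the cocoa arrays the lowest of these averages was in the array with the most 18S signal, and the highest in the one with the least. The cocoa arrays stood in the same order in the average over all 116 members (−0.0047, −0.099 and −0.064) and over the partner genes described later (−0.0175, −0.083 and −0.061). With the 18S signal as a covariate POLR1E (adjusted p = 0.0184) and POLR1G (0.0222) stayed past the threshold, and POLR1F (0.257) and POLR1H (0.182) did not.

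In polymerase III the alternative forms of 1 subunit moved in opposite directions. POLR3G and POLR3GL encode interchangeable versions of the same peripheral subunit. POLR3G is known as the form of stem and tumour cells, and POLR3GL as the widely expressed form. POLR3G read −0.15, −0.58 and −0.29 in the cocoa arrays and 0.21, 0.27 and 0.25 in the control arrays. It was 1.5-fold lower with cocoa (−0.58, SE 0.10, adjusted p = 0.00619), with cocoa array 2 lowest. Its 3 probe sets read −0.74, −0.79 and −0.22, and the third, 1 of 2 with such suffixes, did not pass over probe sets (adjusted p = 0.262).

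POLR3GL read 0.18, 0.36 and 0.16 in the cocoa arrays and −0.16, −0.27 and −0.27 in the control arrays. All cocoa arrays were above all controls, and the gene, read by 1 probe set, was 1.38-fold higher (0.47, SE 0.076, adjusted p = 0.00426). Both genes passed in all 6 fits without 1 array, where the adjusted p reached at most 0.0318 for POLR3G and 0.027 for POLR3GL, and with the 18S covariate (0.04 and 0.0386). POLR3E, a subunit of the TFIIF-like part of polymerase III, was also lower (−0.22, SE 0.063, adjusted p = 0.0482), but it passed in none of the fits without 1 array (0.058 to 0.194). Of the 9 polymerase III genes 2 thus fell and 1 rose (33.3%, beside 13.5% of all genes). The other 6 did not pass, among them the core subunits POLR3A (−0.061, SE 0.066, adjusted p = 0.637) and POLR3B (−0.039, SE 0.061, adjusted p = 0.762).

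**Figure D2:**
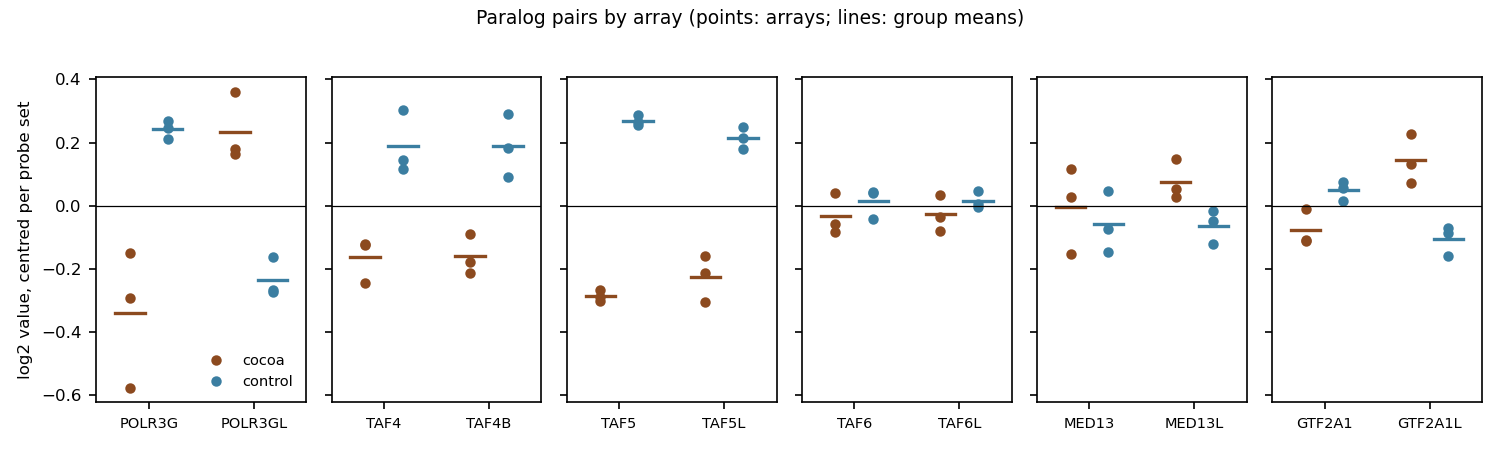
Centred log2 values of 6 pairs of related genes in the 3 cocoa arrays (brown, left) and the 3 control arrays (blue, right), with group means as lines. POLR3G and POLR3GL moved in opposite directions, TAF4 with TAF4B and TAF5 with TAF5L fell together, and TAF6, TAF6L, MED13, MED13L and GTF2A1 did not pass the threshold.

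In polymerase II, 2 of 13 protein-coding genes fell and none rose (15.4%, beside 13.5% of all genes called and 6.12% called lower). Both encode small subunits that polymerases I, II and III share. POLR2L read −0.091, −0.27 and −0.24 in the cocoa arrays and 0.26, 0.14 and 0.11 in the control arrays (−0.37, SE 0.075, adjusted p = 0.0117). POLR2E read −0.092, −0.24 and −0.14 in the cocoa arrays and 0.28, 0.13 and 0.086 in the control arrays (−0.32, SE 0.076, adjusted p = 0.0229). In both genes control array 1 was the highest, and without it the adjusted p was 0.0504 for POLR2L and 0.0831 for POLR2E. POLR2L passed in the other 5 fits without 1 array, and POLR2E, whose probe sets all carry the suffixes, in 2. Of the other shared subunits POLR2F had a difference of −0.25 (SE 0.073, adjusted p = 0.055), POLR2H of −0.13 (SE 0.063, adjusted p = 0.23) and POLR2K of 0.16 (SE 0.069, adjusted p = 0.174).

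The catalytic subunits of polymerase II did not pass. POLR2A, the largest subunit with the repeated tail that is phosphorylated during transcription, read −0.043, 0.037 and −0.15 in the cocoa arrays and −0.0015, −0.0082 and 0.047 in the control arrays, so that the groups overlapped (−0.063, SE 0.069, adjusted p = 0.64). POLR2B had a difference of 0.12 (SE 0.064, adjusted p = 0.266). None of the 6 measured protein-coding genes for subunits found only in polymerase II outside the core passed, with log2 differences between −0.21 and 0.10. In 2 of the 6, POLR2D and POLR2J2, the groups did not overlap, beside 32.5% of all genes.

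Among the TAFs 6 of 24 genes fell and none rose (25.0%, beside 13.5% of all genes called and 6.12% called lower). TAF5, a WD40-repeat protein that forms the scaffold of TFIID, read −0.27, −0.30 and −0.29 in the cocoa arrays and 0.26, 0.25 and 0.29 in the control arrays. The arrays of each group lay close together, and the gene had the smallest adjusted p of all members (1.47-fold lower, −0.55, SE 0.059, adjusted p = 0.000585). Its probe sets read −0.47 and −0.64. TAF5L, which takes the place of TAF5 in the histone-acetylating coactivator SAGA, read −0.16, −0.21 and −0.31 in the cocoa arrays and 0.18, 0.25 and 0.22 in the control arrays (1.36-fold lower, −0.44, SE 0.066, adjusted p = 0.00306). Its decrease rests on 1 of 2 probe sets, which read −0.81 (adjusted p over probe sets 0.00165), while the other read −0.075 (0.657).

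TAF4, a scaffold subunit contacted by activators, and TAF4B, its relative known from ovary and testis, fell by 0.35 each (SE 0.075 and 0.074, adjusted p = 0.0146 and 0.0145). Their cocoa arrays read −0.12, −0.12 and −0.25 for TAF4 and −0.090, −0.21 and −0.18 for TAF4B. Their control arrays read 0.15, 0.12 and 0.30 for TAF4 and 0.29, 0.18 and 0.090 for TAF4B, so that a different control array was highest in each. Both passed in 4 of the 6 fits without 1 array, with adjusted p of up to 0.0531 for TAF4 (without control array 3) and 0.0598 for TAF4B (without control array 2), and both probe sets of TAF4 carry the suffixes for several transcripts. TAF3, which binds methylated lysine 4 of histone H3, fell by 0.22 (SE 0.061, adjusted p = 0.0417), and passed in none of the fits without 1 array (0.0637 to 0.128).

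TAF1A, a subunit of the polymerase I factor SL1, read −0.074, −0.31 and −0.22 in the cocoa arrays and 0.23, 0.074 and 0.18 in the control arrays (−0.36, SE 0.080, adjusted p = 0.0173). Cocoa array 1 was again nearest to the controls, and the gene passed in 2 of the 6 fits that leave out an array (up to 0.069, without control array 1). The only probe set of TAF1A carries a suffix for several transcripts. The other 3 SL1 subunits did not pass, and TAF1D, 1 of them, was low in cocoa arrays 2 and 3 only (0.12, −0.43 and −0.47 in the cocoa arrays, −0.12, 0.18 and 0.13 in the control arrays; difference −0.32, SE 0.15, adjusted p = 0.21). TAF1, the largest subunit of TFIID, had a difference of 0.10 (SE 0.089, adjusted p = 0.542), and its retrogene TAF1L of 0.195 (SE 0.11, adjusted p = 0.285). TAF6 (−0.047, SE 0.066, adjusted p = 0.727), TAF6L (−0.043, SE 0.063, 0.741), TAF7 (0.14, SE 0.060, 0.175), TAF7L (−0.11, SE 0.082, 0.468) and TAF9B (−0.17, SE 0.092, 0.281), each given with its difference, SE and limma adjusted p, did not pass either.

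**Figure D3:**
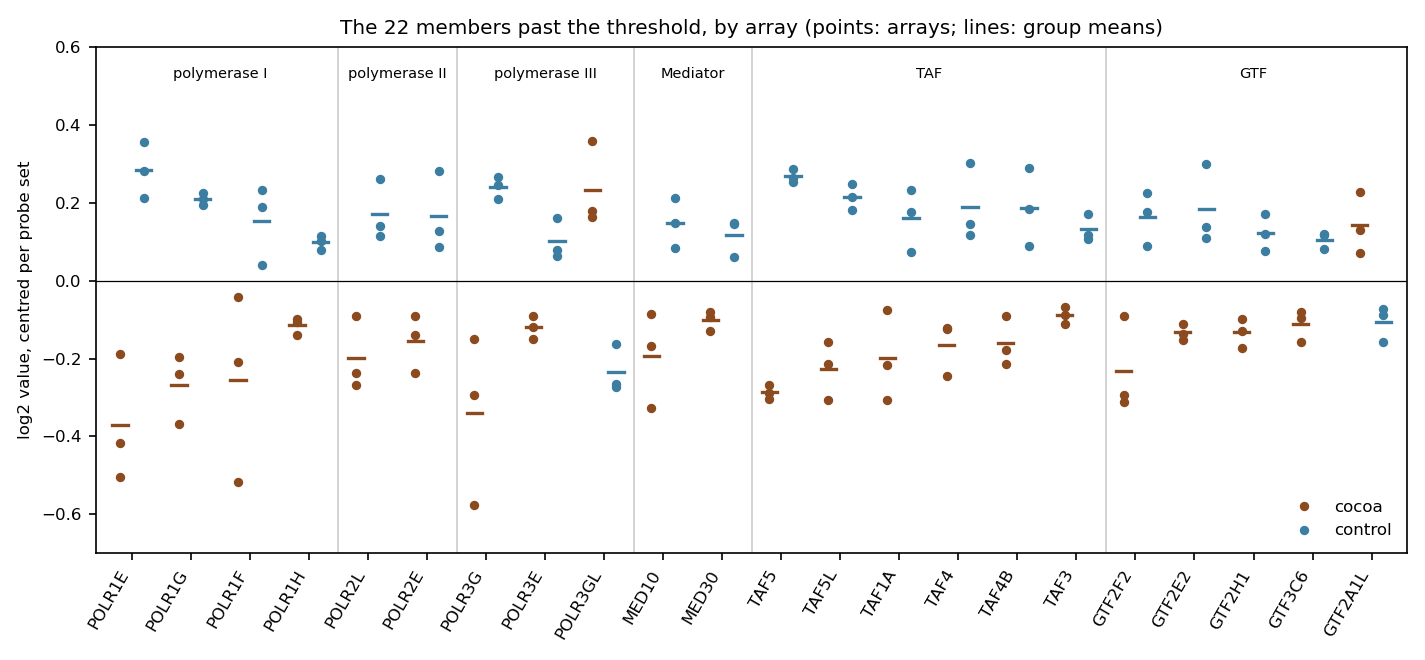
Centred log2 values of the 22 members past the threshold in each cocoa array (brown, left) and control array (blue, right), with group means as lines, ordered by class. Cocoa arrays lie below the controls in 20 genes and above them in POLR3GL and GTF2A1L, and the cocoa arrays of POLR1F and POLR3G are spread most widely.

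Among the general factors 4 of 30 GTF genes fell and 1 rose (16.7%, beside 13.5% of all genes). GTF2F2, the smaller subunit of TFIIF, which brings polymerase II to the promoter, read −0.090, −0.31 and −0.29 in the cocoa arrays and 0.23, 0.18 and 0.090 in the control arrays (1.32-fold lower, −0.40, SE 0.079, adjusted p = 0.0114). GTF2E2, the smaller subunit of TFIIE, read −0.14, −0.15 and −0.11 in the cocoa arrays and 0.30, 0.11 and 0.14 in the control arrays (−0.32, SE 0.071, adjusted p = 0.0184). GTF2F2 passed in 5 of the 6 fits without 1 array (0.0526 without control array 2) and GTF2E2 in 4 (0.067 without control array 1). Their larger partners did not pass: GTF2F1 had a difference of −0.052 (SE 0.074, adjusted p = 0.732) and GTF2E1 of −0.00070 (SE 0.073, adjusted p = 0.998). Whether the subunits of a pair differed from each other was not tested.

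GTF2H1, a core subunit of TFIIH, fell by 0.26 (SE 0.063, adjusted p = 0.027). Its 3 probe sets read −0.57 (adjusted p over probe sets 0.00395), −0.22 (0.187) and 0.025 (0.905), so the decrease rests on the first, and the gene passed in 1 of the fits without 1 array. GTF3C6, a small subunit of TFIIIC, fell by 0.22 (SE 0.061, adjusted p = 0.0465) and passed in none of those fits. GTF2A1L, a TFIIA subunit known from germ cells, is read by 1 probe set. That probe set carries a suffix for several transcripts and did not pass over probe sets (limma adjusted p = 0.0949). GTF2A1L read 0.072, 0.13 and 0.23 in the cocoa arrays and −0.087, −0.16 and −0.072 in the control arrays (1.19-fold higher, 0.25, SE 0.068, adjusted p = 0.041), and passed in 1 of those 6 fits. Its widely expressed relative GTF2A1 had a difference of −0.13 (SE 0.064, adjusted p = 0.25), GTF2B, the TFIIB protein that sets the start site, of 0.088 (SE 0.063, adjusted p = 0.429), and GTF3C1, the largest TFIIIC subunit, of 0.058 (SE 0.062, adjusted p = 0.631).

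Mediator had the lowest share of calls of the 6 classes. Of 30 genes 2 fell and none rose (6.67%, beside 13.5% of all genes called and 6.12% called lower), and the median difference was −0.033. MED10, a subunit of the middle module, read −0.17, −0.33 and −0.084 in the cocoa arrays and 0.21, 0.084 and 0.15 in the control arrays (−0.34, SE 0.079, adjusted p = 0.021), and passed in 2 of the 6 fits without 1 array (0.0794 without control array 1). MED30, a subunit of animal Mediator, fell by 0.22 (SE 0.062, adjusted p = 0.0478), with no call in any fit without 1 array. Its decrease was seen in the 2 probe sets with suffixes for several transcripts (−0.29 and −0.34), and the third read −0.025. Without such probe sets its adjusted p was 0.914.

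The subunits that hold Mediator together or meet its regulators did not pass. MED14, the backbone subunit, had a difference of −0.042 (SE 0.070, adjusted p = 0.776), MED17, the scaffold of the head, of −0.11 (SE 0.092, adjusted p = 0.5), and MED1, the subunit bound by nuclear receptors, of 0.10 (SE 0.097, adjusted p = 0.58). In the kinase module MED12 (0.023, SE 0.070), MED12L (−0.024, SE 0.090), MED13 (0.055, SE 0.087) and MED13L (0.14, SE 0.067) had adjusted p of 0.886, 0.911, 0.763 and 0.221. The precision was that of 3 arrays per group. In simulated data with these spreads, 10% of genes changed by 0.25 on the log2 scale were recovered and 60% of those changed by 0.5. Far fewer genes were shifted there, and 140 were called, beside 2666 in these data. The adjusted threshold was therefore stricter in the simulation, and its shares do not give the recovery in these data.

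Partners of these complexes outside the named families were read from 8 lists of 66 genes, 63 of them measured. Of the 63, 6 fell and none rose (9.52%, beside 13.5% of all genes called and 6.12% called lower), with a median difference of −0.077. CDK8, the kinase of Mediator, read −0.14, −0.25 and −0.12 in the cocoa arrays and 0.24, 0.17 and 0.12 in the control arrays (−0.35, SE 0.069, adjusted p = 0.0109), and passed in all 6 fits without 1 array, but not with the 18S covariate (0.0825), the 5′ to 3′ covariate (0.0598) or without cocoa arrays 2 and 3 (0.107). MNAT1, which assembles the kinase of TFIIH, fell by 0.33 (SE 0.080, adjusted p = 0.0252), and GPN2, a GTPase related to polymerase assembly factors, by 0.29 (SE 0.082, adjusted p = 0.0444). Each passed in 1 of those fits, with adjusted p of 0.0891 and 0.146 without control array 1.

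Of 21 measured genes for pausing and elongation 3 fell (14.3%, beside 13.5% of all genes called and 6.12% called lower). They were ELL3 (−0.38, SE 0.066, adjusted p = 0.00613) and ELL2 (−0.36, SE 0.063, adjusted p = 0.00651), elongation factors of polymerase II, and NELFCD, a subunit of the pausing factor NELF (−0.35, SE 0.067, adjusted p = 0.00896, and 0.0504 without control array 2). With the 18S covariate ELL2 (0.0315) was past the threshold and the other 5 partner genes were not, among them ELL3 (0.0517) and NELFCD (0.0708). Without the suffixed probe sets ELL3 had an adjusted p of 0.0626, and without cocoa arrays 2 and 3 none of the 6 passed. None of the 3 initiation genes of polymerase I (UBTF, RRN3 and TTF1), the 10 genes listed for polymerase III or the 5 of mitochondrial transcription passed. The 5 measured genes listed with TBP (TBP itself, TBPL1, BTAF1, DR1 and DRAP1) did not pass either.

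How far single calls depended on arrays and processing differed between genes. TAF5, POLR1E, POLR1G, TAF5L, POLR3GL and POLR3G were past the threshold in all 6 fits without 1 array, with the 18S covariate, with the 5′ to 3′ covariate and with the replicate number as a block. The other 16 lost their call with the 18S covariate. With it 6 of 116 members (5.17%) were called, beside 5.58% of all genes. All 22 kept their sign there, and the differences of the genes that lost their call changed unequally. TAF4 went from −0.35 to −0.34, and POLR1F from −0.41 to −0.22. With the 5′ to 3′ difference as a covariate, 8 members (6.90%) were called, beside 7.14% of all genes. Both shares of members were just below those of all genes. The shares pool both directions, and those of all genes were not split by direction in the alternatives. Of the called members, 5 of the 6 with the 18S covariate and 7 of the 8 with the 5′ to 3′ covariate were lower. With the block 14 members (12.1%) were called, beside 9.85% of all genes, and without the suffixed probe sets 12 of 95 (12.6%), beside 10.6%. Without cocoa array 1, 2 or 3 in turn, 21, 11 and 12 members (18.1%, 9.48% and 10.3%) were called, beside 14.6%, 9.04% and 9.75% of all genes. Without control array 1, 2 or 3, 8, 10 and 11 (6.90%, 8.62% and 9.48%) were called, beside 8.21%, 6.65% and 9.23% of all genes. The member share was thus below that of all genes without control array 1, and within 1 percentage point of it without cocoa array 2, cocoa array 3 or control array 3. In a fit without cocoa arrays 2 and 3, chosen after seeing the data, all 22 kept their sign and 3, TAF5 (adjusted p = 0.0193), POLR1E (0.0393) and POLR1G (0.0432), kept their call. POLR3G (0.0505) and POLR3GL (0.0544) were just outside the threshold there, and 4 members (3.45%) were called, beside 4.27% of all genes.

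**Figure D4:**
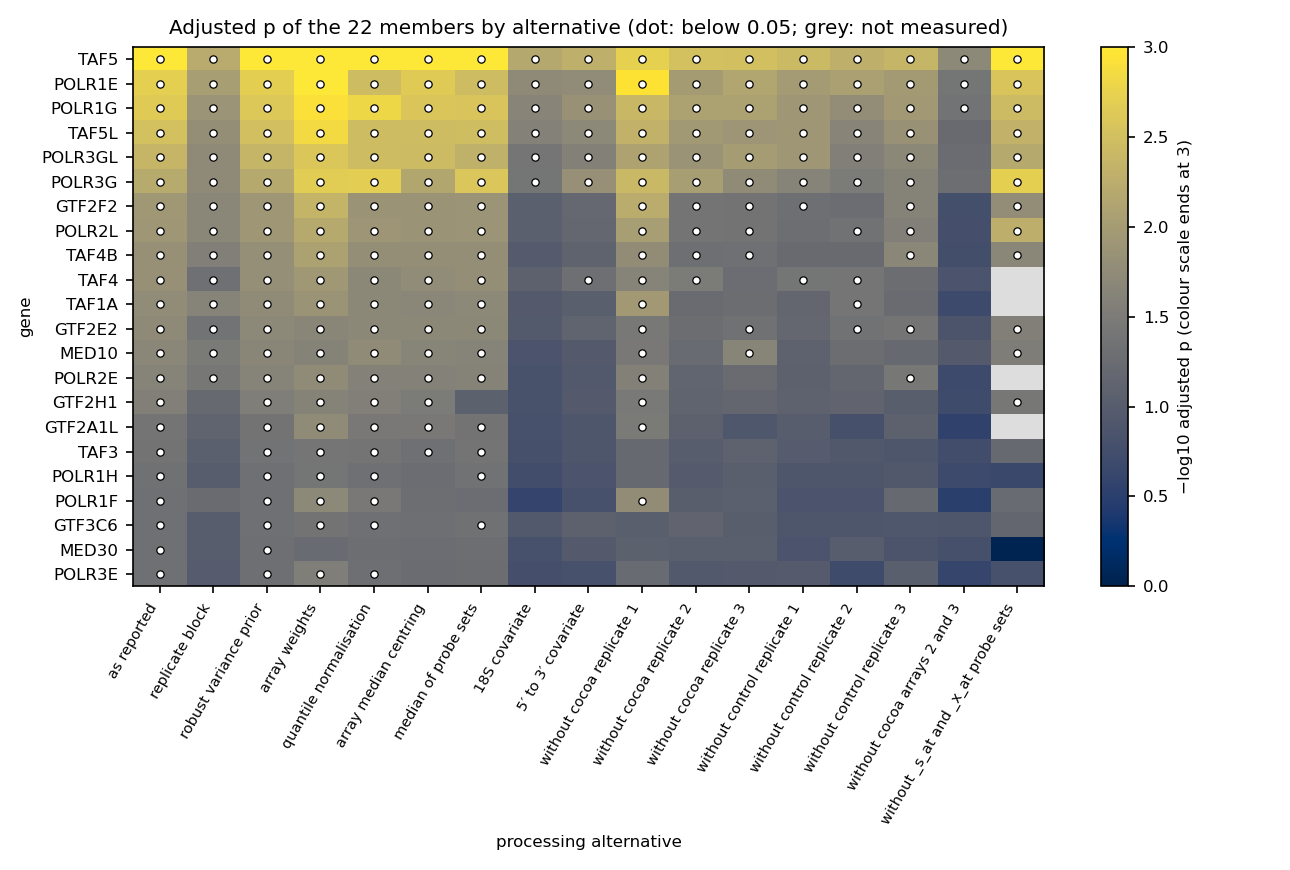
Adjusted p of the 22 members (rows, ordered by adjusted p) under the reported fit and 16 alternatives (columns), as −log10 on a colour scale that ends at 3, with a dot where it is below 0.05. The 6 genes in the top rows have a dot in every column except, for TAF5L, POLR3GL and POLR3G, the fit without cocoa arrays 2 and 3.

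Promoter letters were compared over 87 members with a promoter in the RefSeq table, 18 of them past the threshold. CACGTG, read on both strands in the 250 bases before the start, occurred in 16 of the 87 (18.4%), against 7.83% of 15384 genes on the array with a promoter and 6.49% of all 27305 promoters. Among the 18 it occurred in 5 (27.8%), beside 11 of the 69 members not past the threshold (15.9%). CCGGAAG, the core of sites for ETS factors, occurred in 25 of the 87 (28.7%). That compares with 12.0% of genes on the array and 8.82% of all promoters. Past the threshold 3 of the 18 held it (16.7%), beside 22 of the 69 others (31.9%). Differences between members past the threshold and the others were not tested. GGGCGG occurred in 55.2% of members and 56.3% of genes on the array, CCAAT in 31.0% and 34.1%, and TATAAA in 5.75% and 8.31%.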

How the data were processed

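The deposited values are log2 expression of 54675 probe sets on 6 arrays, which the authors computed by robust multi-array average (RMA), per the submitters' processing notes. The series text names GeneSpring GX, and no version was stated. The deposited log2 table is centred so that every probe set's median is 0; it holds no levels, and no filter on dim probe sets was possible. That the base is 2 follows from RMA. Scanner files were not analysed here.

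After 62 control probe sets were left out, 41091 of 54613 probe sets carried 1 gene symbol through the platform annotation, 1801 carried several and 11721 none. Of the 41091, 41037 matched RefSeq by gene identifier and 0 symbols needed an update. Values of a gene's probe sets were averaged (19775 genes), and cocoa minus control was fitted over all genes with limma 3.58.1 in R 4.3.3 (lmFit, eBayes), with Benjamini-Hochberg adjustment. The SE is limma's moderated standard error. The steps were tested on simulated data.

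Members and lists were chosen with earlier results of these data known. Named were all members past the threshold, the catalytic subunits, paralog pairs, 6 further subunits (MED1, MED14, MED17, GTF2B, GTF2I and GTF3C1) and, of the partner lists, genes past the threshold. Others named in the text were chosen after their values were seen. No 2 arrays were copies: differences between any pair of arrays had an SD of 0.22 to 0.264 among cocoa arrays, 0.175 to 0.215 among controls and 0.269 to 0.333 across groups. Alternatives were a replicate block, robust prior, array weights, quantile normalisation, median centring, other summaries of probe sets, covariates from control probe sets and leaving out arrays. Tables and figures were made in Python 3.11.15 (pandas 2.3.3, matplotlib 3.10.9; numpy 2.4.6).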

Additional observations from a re-analysis of the deposited data

How the results depend on the processing

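Beside 22 called members as reported, the number called was 14 with the replicate number as a block, 12 without probe sets of the suffixes _s_at and _x_at (95 members measured), 6 with the 18S covariate, 8 with the 5′ to 3′ covariate, 4 without cocoa arrays 2 and 3 (an alternative chosen after seeing the data, with the lone cocoa array assumed to vary like the controls) and 8 to 21 without 1 array, lowest without control array 1. The counts were 21 with quantile normalisation, 17 with array centring, 26 with array weights, 22 with a robust prior, 21 with the median of probe sets and 15 at 1.2-fold or more. Some of these calls were new: 7 of the 8, 3 of the 4, 21 of the 26 (array weights), 18 of the 21 (median of probe sets) and 17 of the 21 (without cocoa array 1) were among the 22. Over all genes, beside 2666 calls, the number was 1103 with the 18S covariate, 1411 with the 5′ to 3′ covariate, 845 without cocoa arrays 2 and 3 and 1315 to 2881 without 1 array, lowest without control array 2 (1623 without control array 1). The class medians, with no test, moved beyond the spread between replicates in these cases. Polymerase I had −0.17, and −0.083 without cocoa arrays 2 and 3. Polymerase II had −0.15, and −0.071 without them. Polymerase III had −0.14, and −0.065 without the suffixed probe sets, −0.058 with the 18S covariate, −0.075 with the 5′ to 3′ covariate, −0.057 without cocoa arrays 2 and 3 and −0.15 to −0.084 without 1 array. Mediator had −0.033, and −0.054 without cocoa arrays 2 and 3 and −0.061 to −0.0195 without 1 array. The TAFs had −0.077, and −0.035 with the 5′ to 3′ covariate, −0.024 without cocoa arrays 2 and 3 and −0.15 to −0.058 without 1 array. The GTF genes had −0.051, and −0.080 without the suffixed probe sets, −0.012 with the 18S covariate, −0.017 with the 5′ to 3′ covariate and 0.00090 without cocoa arrays 2 and 3. No called gene changed sign in any alternative, and the causes of these shifts were not tested. The reported fit does not treat the replicate numbers as pairs. Deviations of same-numbered arrays from their group means correlated at −0.12, −0.009 and −0.003 across genes, and those of differently numbered arrays at −0.114 to 0.121. With 3 arrays per group this check cannot exclude pairing. With the block 14 of the 22 calls were kept.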

Other observations

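Single arrays set the values of some members that did not pass. GTF2I, a multifunctional transcription factor, read 0.0046, −0.76 and −0.14 in the cocoa arrays and −0.0012, 0.021 and 0.0012 in the control arrays (log2 difference −0.31, SE 0.17, limma adjusted p = 0.28), and without cocoa arrays 2 and 3 its difference was −0.0025. GTF2I-AS1, a long non-coding RNA named as its antisense, read −0.053, −0.82 and −0.038 in the cocoa arrays and 0.038, 0.13 and 0.43 in the control arrays (−0.50, SE 0.195, adjusted p = 0.13). TAF15, an RNA-binding protein, read 0.21, −0.59 and −0.049 in the cocoa arrays and −0.73, 0.033 and 0.24 in the control arrays, so that its SE of 0.26 was the largest of the members. TAF1L read −0.019, 0.43 and 0.13 in the cocoa arrays and −0.042, −0.013 and 0.013 in the control arrays.

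Probe sets of 1 gene often differed. Of the 22 called genes 14 have several probe sets, and in 12 of them all had the gene's sign. In the others no probe set passed with the opposite sign. Another 9 genes had a called probe set without a call of the gene. GTF3C4, a TFIIIC subunit, had probe sets at −0.39, −0.33 and 0.31, and POLR1D, a subunit shared by polymerases I and III, at −0.18, 0.094 and 0.31. A further 22 probe sets list a member among several symbols and entered no gene's value; 3 of them were lower and 0 higher, with log2 differences between −0.52 and 0.48. None of the 12 members that are not protein-coding passed, with differences between −0.50 and 0.29.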
